A study of Homo sapiens with 8 samples.

Results

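TMEM160, C4orf48, INAFM1 and EVA1B are 4 genes for small proteins that few studies have described. They were 4 of the 1950 genes in the authors' deposited table. Their selection rested on small, little-studied proteins and on a strong fall in the same 8 libraries described here. Their change between the groups is therefore given as a description, with no p, and supports nothing further. The libraries came from K562, an established human line of chronic myeloid leukemia. In the extract group (4 libraries, numbered 1 to 4) the cells were kept for 3 days with 80 µg/mL of an extract of the plant drug Caulis Polygoni Multiflori. In the control group (4 libraries, numbered 2 to 5) they received none, with no culture time stated, so culture time and the extract cannot be told apart. Both groups grew in RPMI 1640 medium with serum, and no genotype or other agent was named for either. Nothing states that separate cultures were used for the libraries, and their spread may be technical.

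The proteins share size, which was part of the choice, and not a pathway. TMEM160 codes for a small membrane protein of mitochondria. C4orf48, now also named NICOL1, codes for a secreted peptide-like protein, and its gene lies in the part of chromosome 4 that is lost in Wolf-Hirschhorn syndrome. INAFM1 codes for a protein with a motif named after InaF, a fly protein needed by the TRP channel of photoreceptors. EVA1B is a human relative of the worm gene eva-1, whose product takes part in axon guidance, and its paralog EVA1A has been tied to autophagy. None of the 4 is a textbook gene of blood cell maturation.

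Each gene is compact and rich in G and C (GENCODE release 29, GRCh38). TMEM160 (ENSG00000130748) lies on the minus strand of chromosome 19 from 47045907 to 47048630, with 3 exons, a transcript of 663 nt and a protein of 188 residues. C4orf48 (ENSG00000243449) lies on the plus strand of chromosome 4 from 2041993 to 2043970, with 2 annotated transcripts that code for 128 and 95 residues. INAFM1 (ENSG00000257704) is a single exon on the plus strand of chromosome 19 from 47274453 to 47275707 and codes for 142 residues. EVA1B (ENSG00000142694) lies on the minus strand of chromosome 1 from 36322031 to 36324154, with 3 exons and 165 residues.

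Sequences upstream of a RefSeq start of each of the 4 genes are shown because the genes were low together in the extract libraries and no promoter signal was measured here. They come from RefSeq (GRCh38.p14), run 5′ to 3′ on the gene's strand and leave out annotated UTR bases. The capitals mark the GC box, GGGCGG or its reverse complement CCGCCC, the motif bound by SP factors. The stretches are chr19:47048631-47048874 (minus strand), chr4:2041904-2041992 (plus), chr19:47274173-47274422 (plus) and chr1:36323646-36323892 (minus). For EVA1B the second of 2 RefSeq starts is shown, which lies inside the gene, 509 bases downstream of its GENCODE start, because bases upstream of the first are UTR of the overlapping gene SH3D21.

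TMEM160: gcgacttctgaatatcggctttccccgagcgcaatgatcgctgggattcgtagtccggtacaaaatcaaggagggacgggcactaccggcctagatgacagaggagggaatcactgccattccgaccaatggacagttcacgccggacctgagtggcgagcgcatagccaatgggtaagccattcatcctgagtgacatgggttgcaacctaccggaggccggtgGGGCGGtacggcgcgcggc

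C4orf48: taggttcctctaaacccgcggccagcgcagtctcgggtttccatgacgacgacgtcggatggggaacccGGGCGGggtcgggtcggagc

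INAFM1: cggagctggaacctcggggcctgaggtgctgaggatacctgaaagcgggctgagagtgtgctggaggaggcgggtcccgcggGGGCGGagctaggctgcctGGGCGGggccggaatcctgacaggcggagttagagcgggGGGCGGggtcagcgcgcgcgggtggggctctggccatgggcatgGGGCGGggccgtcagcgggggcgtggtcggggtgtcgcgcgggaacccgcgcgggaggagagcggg

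EVA1B: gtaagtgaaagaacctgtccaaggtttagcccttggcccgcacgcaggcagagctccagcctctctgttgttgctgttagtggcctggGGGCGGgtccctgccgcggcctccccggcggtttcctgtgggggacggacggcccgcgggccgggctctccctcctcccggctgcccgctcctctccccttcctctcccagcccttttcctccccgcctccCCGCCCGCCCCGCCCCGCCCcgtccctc

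In the RefSeq windows of 300 bases (250 before the start and 50 after), the GC box occurred 1 time for TMEM160 and 1 time for C4orf48. It occurred 4 times for the INAFM1 start nearest to the GENCODE start and 8 times in the other INAFM1 window. EVA1B had 0 at its first start and 5 at the start shown, several of them in 1 run of C-rich sequence. Of all 35116 windows, 45.0% hold at least 1 GC box on either strand. A CCAAT box (CCAAT or ATTGG) occurred 2 times for TMEM160 1 time in the other INAFM1 window and 0 times in the windows of C4orf48 and EVA1B, against 34.6% of all windows with at least 1. A TATAAA (either strand) was in none of the 6 windows of these genes, and 11.5% of all windows hold it. The GC content of the 6 windows lay between 61.7% and 78.3%, against a median of 58.7%. A match is only a match of letters, and no binding was measured.

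Over the tested genes the libraries were more alike within groups than across them. Over the 1950 genes, the values added up to 13114 to 14134 per library. The depth is unknown, since only chosen genes are listed. Pearson correlations of log2 values over the 750 tested genes were 0.938 to 0.962 within groups and 0.819 to 0.875 across groups. The genes were listed for a difference between the groups, so this contrast follows in part from their choice. Every gene in the table has a deposited p under 0.05 and at least a 1.5-fold change, so it is a chosen list and the cell line cannot be checked against its markers. Only the globin HBZ of 13 markers of K562 was listed, at 2834 to 2920 in control and 4952 to 5306 in extract libraries. Of the markers of other blood cells, 2 of 9 for megakaryocytes (GP1BB and ITGA2B) were listed, 2 of 7 for monocytes and granulocytes (CD68 and SPI1) and 1 of 4 for T cells (CD3D). Their summed values were 55.4 to 120 in control and 45.9 to 59.4 in extract libraries for megakaryocytes, 31.9 to 33.3 and 18.9 to 22.7 for monocytes and granulocytes, and 40.05 to 43.8 and 18.5 to 22.9 for T cells. For fibroblasts and epithelium 1 of 4 was listed (COL1A1), at 0.47 to 0.67 and 0.24 to 0.36. None of the markers named here was at 0 in any library, and the part of these markers in the results below was not tested. In bulk RNA, fewer cells that express a gene and less of its RNA per cell cannot be told apart.

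All 4 genes were lower in every extract library than in any control library. By group means the control level was 4.57 times the extract level for TMEM160, 4.71 times for C4orf48, 4.12 times for INAFM1 and 3.09 times for EVA1B (4 libraries each). The smallest separation of single libraries was much less than that and differed between the genes. The values below are the authors' expression values, and the sources used here do not give their unit, so levels are compared within a gene and not between genes.

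TMEM160, the mitochondrial membrane protein gene, stood at 39.74, 44.17, 32.44 and 18.99 in controls 2 to 5. In extract libraries 1 to 4 it stood at 9.13, 8.54, 6.77 and 5.18. Control 5 was the low control, at 0.49 times the mean of the other controls, and the highest extract library was 1.76 times the lowest. Control 5 was still 2.08 times the highest extract library. The means were 33.8 ± 11.02 and 7.41 ± 1.79 (SD, n = 4 each). The log2 change was −2.01 with a standard error of 0.27, here and below on log2(value + 1), which understates the change of low genes.

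C4orf48, the secreted peptide gene, was the least even of the 4. Its control values were 30.89, 81.91, 34.41 and 12.08, in the order of library numbers 2 to 5, and its extract values 8.33, 11.82, 5.11 and 8.57. Control 3 was 6.78 times control 5, a larger ratio than that between the 2 group means. The lowest control exceeded the highest extract library by only 0.26, a ratio of 1.02, so the groups nearly touched. The means were 39.8 ± 29.7 and 8.46 ± 2.74 (SD, n = 4 each), and the log2 change was −1.86 with a standard error of 0.51. Without control 3 the ratio of means was 3.05 and without control 5 it was 5.80. Leaving out control 3 moved the ratio by 1.54 times, and without controls 3 and 5 together it was 3.86.

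INAFM1 stood at 13.16, 17.13, 12.85 and 7.0 in controls 2 to 5 and at 4.0, 1.65, 2.13 and 4.39 in extract libraries 1 to 4. Controls 2 and 4 were nearly equal, with control 3 above and control 5 below them. The lowest control was 1.59 times the highest extract library. The means were 12.5 ± 4.17 and 3.04 ± 1.35 (SD, n = 4 each), and the log2 change was −1.75 with a standard error of 0.31.

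EVA1B, the relative of worm eva-1, had the tightest controls, at 6.87, 7.39, 6.98 and 5.13 in libraries 2 to 5. Its extract values were 3.27, 1.94, 2.06 and 1.27. Only control 5 stood off from the other controls, and the lowest control was 1.57 times the highest extract library. The means were 6.59 ± 1.00 and 2.14 ± 0.833 (SD, n = 4 each), and the log2 change was −1.30 with a standard error of 0.20. The annotated span of EVA1B overlaps SH3D21 and the antisense gene AL591845.1 on the other strand. The sources used here do not give whether counting was by strand. Without strand, reads of EVA1B and of these genes cannot be told apart.

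**Figure D1:**
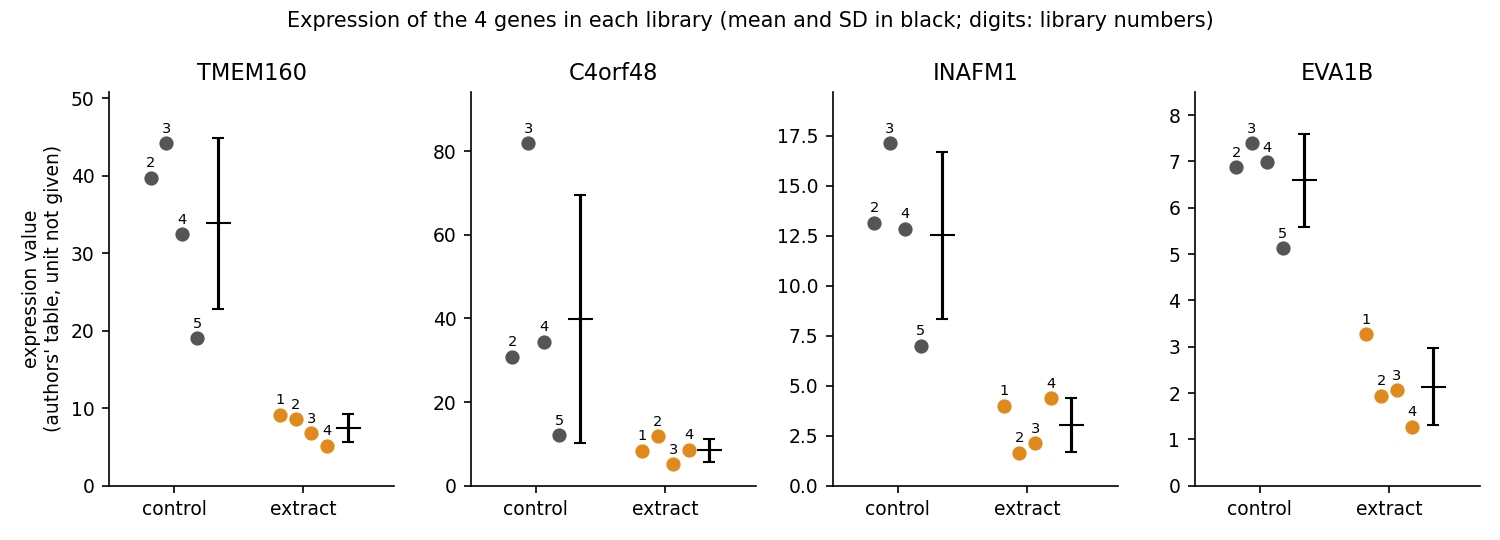
Expression value (vertical axis, authors' unit, not given) of each gene in the 4 control libraries (grey, numbered 2 to 5) and the 4 extract libraries (orange, numbered 1 to 4), with group mean and SD in black and each axis starting at 0. Every extract library lies below every control library, with the narrowest gap for C4orf48 (12.08 against 11.82), and control 5 is the lowest control in all 4 panels.

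In the authors' deposited table the log2 fold changes were −2.15 for TMEM160, −2.21 for C4orf48, −2.01 for INAFM1 and −1.58 for EVA1B. All 4 had an adjusted p under 0.05 there, as did 27.7% of the 1950 listed genes in the same direction. In limma, 4 of 4 were called lower at an adjusted p of 0.05, against 56.0% of the 750 tested genes. The groups did not overlap, with extract lower, for 4 of 4 genes, against 45.9% of the tested genes. Since the genes were selected on this contrast, nothing is read from these counts. By size of the log2 change, TMEM160 ranked 5, C4orf48 9, INAFM1 10 and EVA1B 22 from the largest fall among the 750, whose median was −0.50.

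The control libraries took the same extremes in all 4 genes. Control 3 was the highest control and control 5 the lowest for TMEM160, C4orf48, INAFM1 and EVA1B alike. Among the 750 tested genes, control 3 was highest for 28.3%, control 5 was lowest for 26.3%, and both held for 80 genes or 10.7%. On the log2 scale, control 5 lay −0.74, −1.35, −0.70 and −0.30 from the control mean for TMEM160, C4orf48, INAFM1 and EVA1B. Control 3 lay 0.44, 1.32, 0.48 and 0.15 above it. The quartiles of the tested genes were −0.12 and 0.12 in control 5 and −0.12 and 0.13 in control 3, and all 4 genes lay outside them in both libraries. This shared order was seen in the libraries that chose the genes and is given with no test.

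The extract libraries showed no such shared order. Extract 1 was highest for TMEM160 and EVA1B, extract 2 for C4orf48 and extract 4 for INAFM1. Extract 4 was lowest for TMEM160 and EVA1B, extract 3 for C4orf48 and extract 2 for INAFM1. TMEM160 and EVA1B thus had the same highest and lowest extract library. Across all 8 libraries with the group means removed, the cosine between the deviations of 2 genes was 0.79 for TMEM160 with EVA1B and 0.78 for TMEM160 with C4orf48. It was lowest for INAFM1 with EVA1B, at 0.33.

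**Figure D2:**
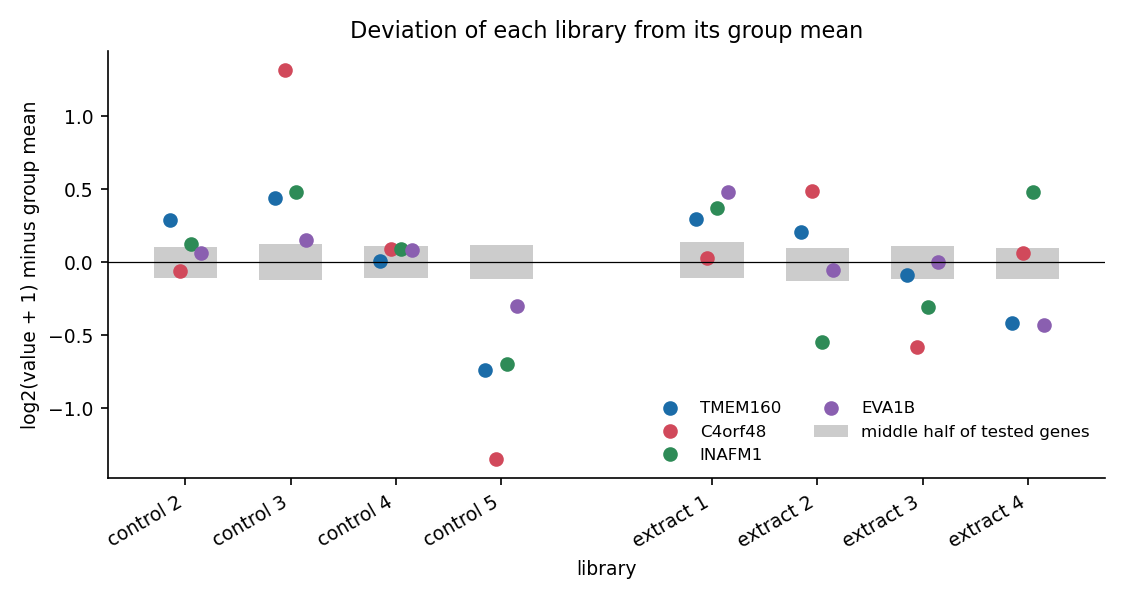
Deviation of each library (horizontal axis) from its group mean on log2(value + 1) (vertical axis) for the 4 genes (coloured points), with grey bars from the lower to the upper quartile of the 750 tested genes. All 4 genes are above the mean in control 3 and below it in control 5, where C4orf48 reaches 1.32 and −1.35, and they scatter without a common order over the extract libraries.

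The spread between control libraries was wide for 3 of the 4 genes. The SD of log2 values among controls was 0.52 for TMEM160, 1.09 for C4orf48, 0.50 for INAFM1 and 0.20 for EVA1B, against a median of 0.18 over the tested genes. Of the tested genes 91.1%, 98.5%, 89.5% and 56.4% had a smaller one, in that order. Listed genes of like level were steadier. All listed genes were chosen on a deposited p under 0.05, so these shares and medians describe that list and not all expressed genes. Among genes whose control mean was within 2-fold of the gene's own, the median coefficient of variation was 7.12% for the 73 genes near TMEM160, which had 32.6%. It was 7.06% for the 66 genes near C4orf48, which had 74.6%, and 10.2% for the 150 near INAFM1, which had 33.3%. EVA1B had 15.2%, close to the 14.7% of its 278 neighbours in level. Without control 5 the SD was 0.22 for TMEM160, 0.22 for INAFM1 and 0.05 for EVA1B, and 0.76 to 1.33 for C4orf48 with any 1 control left out.

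In the extract group all 4 genes were more variable than most tested genes, not matched for transcript length. The median SD of log2 values among extract libraries was 0.33 in the shortest of 5 length classes, which holds TMEM160 and C4orf48. It was 0.20 in the next class, which holds INAFM1 and EVA1B. The SD of log2 values was 0.32, 0.44, 0.50 and 0.37 for TMEM160, C4orf48, INAFM1 and EVA1B, and 77.2%, 87.3%, 89.7% and 82.5% of the tested genes had a smaller one. The highest extract library was 2.31 times the lowest for C4orf48, 2.66 times for INAFM1 and 2.57 times for EVA1B.

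**Figure D3:**
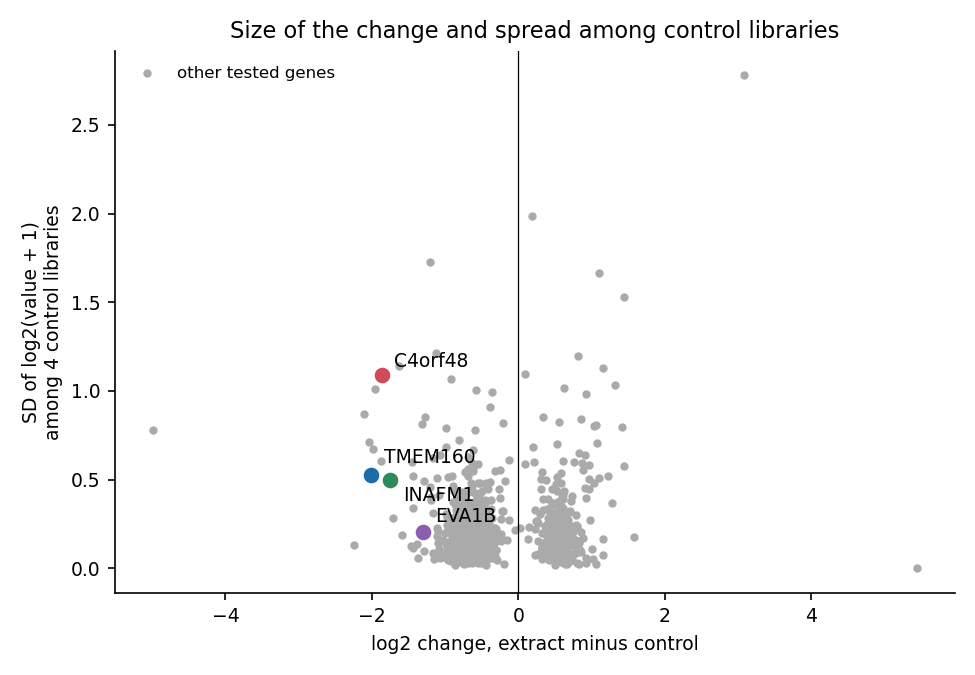
Log2 change, extract minus control (horizontal axis), against the SD of log2(value + 1) among the 4 control libraries (vertical axis) for the tested genes, with the 4 genes coloured. The 4 genes lie far to the left of the median of −0.50, and C4orf48, at an SD of 1.09, is also high, while EVA1B, at 0.20, is near the median spread. The table holds few genes near 0 because it was chosen for change.

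A property that did not enter the choice was base composition. The annotated transcripts of TMEM160, C4orf48, INAFM1 and EVA1B hold 72.2%, 73.2%, 71.6% and 66.0% G and C, against a median of 53.1% over the 725 tested genes with an annotated transcript. All 4 were in the GC-richest of 5 equal classes, and TMEM160, C4orf48 and INAFM1 exceeded at least 99.0% of those genes. Their transcripts of 663, 477, 1255 and 1054 nt were shorter than the median of 2039 nt. Small protein size was part of the choice, so nothing is read from these lengths. Where a gene has several transcripts, the longest coding one was taken.

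The median log2 change was much the same at every base composition. It was −0.50 in the GC-richest class (145 genes) and between −0.52 and −0.47 in the other classes. The share called lower was 54.5% in the richest class and 51.0% to 60.0% in the others. All listed genes were chosen for change, so these medians and shares describe that list. Control 3 highest with control 5 lowest held for 17.2% of the richest class, against 6.21% to 11.7% of the others. The richest class includes the 4 genes themselves, which all hold this order, so its share is not an independent background. The median deviation of control 5 was −0.04 in the richest class and 0.02 in the poorest. A class median is not comparable with the deviation of a single gene. By length, the median log2 change went from −0.63 in the shortest of 5 classes to −0.37 in the longest, and the median SD among controls from 0.31 to 0.13. The part of base composition or length in the pattern of the 4 genes was not tested.

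Other short and GC-rich genes were examined for the same pattern. There were 13 further tested genes with at least the GC content of EVA1B and at most the length of INAFM1, bounds chosen after the values were seen. Of these, 8 were called lower, 1 was called higher and 4 were not called, with a median log2 change of −0.55. Control 5 was the lowest control in 6 of the 13 (46.2%, against 26.3% of all tested genes), among them C19orf81, at 49.33, 42.51, 45.08 and 23.97 in controls 2 to 5. Control 3 was the highest in 3 of the 13. Both held in 1 of the 13 (7.69%, against 10.7% of all tested genes), HES4, a target of Notch signaling, which had control values of 11.23, 14.22, 11.76 and 8.10. HES4 was 11.3 ± 2.52 in control and 5.15 ± 0.60 in extract libraries (SD, n = 4 each). The apolipoprotein gene APOE was even in comparison, at 119.6 ± 4.72 and 65.1 ± 2.96.

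**Figure D4:**
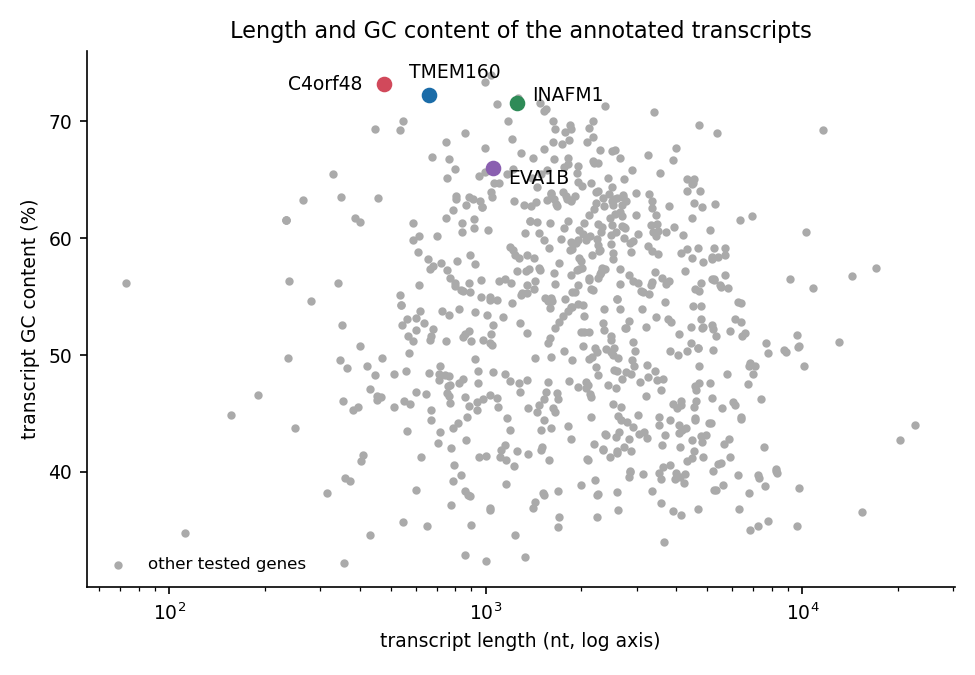
Length (horizontal axis, nt, log scale) and GC content (vertical axis, %) of the annotated transcript of each tested gene, with the 4 genes coloured. TMEM160, C4orf48 and INAFM1 lie along the upper edge at 71.6% to 73.2%, and EVA1B somewhat below at 66.0%.

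The nearest listed neighbours of TMEM160, C4orf48 and INAFM1 each shared a control extreme with the 4 genes, but none shared both. Among all tested genes control 3 was highest for 28.3% and control 5 lowest for 26.3%, so nothing is read from this. The nearest listed gene to EVA1B, a noncoding gene without a symbol at 391915 bases, was not examined. NPAS1, a transcription factor gene whose end lies 131 bases from the end of TMEM160 on the other strand, had 2.60 ± 1.11 in control and 1.93 ± 0.591 in extract libraries and was not called (limma adjusted p = 0.308). Its values in controls 2 to 5 were 1.67, 3.83, 1.66 and 3.26, highest in control 3 as for TMEM160, with control 5 not the lowest. BBC3, a gene for a death-promoting BCL2 relative and the nearest listed neighbour of INAFM1 at 41686 bases, fell from 13.2 ± 1.55 to 6.29 ± 1.04 (SD, n = 4 each). BBC3 stood at 12.35, 15.49, 12.40 and 12.44 in controls 2 to 5, again highest in control 3, with the others nearly equal. POLN, the nearest listed gene to C4orf48 at 27947 bases, was under 1 in both means, with 0.23, 0.37, 0.84 and 0.07 in controls 2 to 5, lowest in control 5 but not highest in control 3. NELFA, whose start lies 89 bases from that of C4orf48 on the other strand, and the paralogs INAFM2, EVA1A and EVA1C were not listed (0 of 3 paralogs) and were not analysed here. Of NELL2, ROS1 and TFRC, genes for proteins tied to the C4orf48 protein, 0 of 3 were listed.

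For each of the 4 genes the single gene nearest in pattern was found. By the root mean square difference over 8 libraries of log2 values relative to the control mean, UQCRFS1P1, a pseudogene, was nearest to TMEM160 (0.30) and to C4orf48 (0.52). UQCRFS1P1 stood at 15.79, 15.23, 15.32 and 5.48 in controls 2 to 5, so it shared the low control 5 but not the high control 3. RANBP3-DT, a noncoding gene, was nearest to INAFM1 (0.44), and CRYBA4, a lens crystallin gene whose protein of 196 residues is also small, to EVA1B (0.23). CRYBA4 went from 12.4 ± 1.79 to 3.57 ± 1.28 (SD, n = 4 each).

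With the group means removed, GP1BB had deviations most like the mean of the 4 genes, with a cosine of 0.96 over 8 libraries. GP1BB codes for a chain of the platelet receptor of von Willebrand factor, and its transcript holds 71.1% G and C. Its control values were 84.07, 116.97, 71.66 and 52.05, again highest in control 3 and lowest in control 5. SLC2A4 (0.93), ZNF579 (0.91), SPICE1 (0.91) and CEBPB (0.90) followed, and the median over all named tested genes was 0.01. Transcript G and C content was 57.1% for SLC2A4, 65.9% for ZNF579, 40.7% for SPICE1, a centriole protein gene, and 66.2% for CEBPB. The part of base composition in this likeness was not tested. CEBPB, a transcription factor gene of myeloid cells, stood at 8.63, 12.94, 9.24 and 6.70 in controls 2 to 5. These genes were found by searching for likeness, and no test is given.

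Genes for other small proteins were lower more often than higher, as was the table as a whole. Of 77 other tested genes whose longest annotated protein has at most 200 residues, 47 were called lower, 14 higher and 16 were not called, with a median log2 change of −0.66. Over all 750 tested genes the counts were 420, 201 and 129, with a median of −0.50. With each library centred on its median, 33 of the 77 were lower and 18 higher, and 241 and 228 of the 750. In this class, GMFG, an actin regulator gene of blood cells, fell from 48.4 ± 4.69 to 17.9 ± 1.99. C19orf81 fell from 40.2 ± 11.2 to 17.6 ± 7.84 (SD, n = 4 each), which was not called after quantile normalization (adjusted p = 0.115 in limma).

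Other genes with placeholder names moved in both directions. Of 22 further tested genes named by an open reading frame, TMEM, FAM, CCDC, INAFM or EVA1 symbol, 10 were called higher, 9 lower and 3 were not called. With median centring 10 of the 22 were higher and 7 lower, and with quantile normalization 10 and 5. Among the higher genes, FAM89B was called in 5 of 17 fits and C1orf53 in 10 of 17. Of the 6 tested TMEM genes 4 were higher and 2 lower, TMEM160 among the latter. TMEM158 rose from 6.08 ± 1.60 to 10.3 ± 0.912 and TMEM86B from 1.53 ± 0.336 to 2.90 ± 0.745 (SD, n = 4 each), the latter call lost without controls 3 and 5 (limma adjusted p = 0.0611). TMEM243 fell from 4.56 ± 0.573 to 2.87 ± 0.728, a call lost with median centring among other settings (highest limma adjusted p = 0.168). Of the 8 tested open reading frame genes 2 were higher and 4 lower, C4orf48 among the latter. C9orf135 fell from 17.6 ± 1.28 to 6.61 ± 0.726.

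Lists of genes related to the known roles of the 4 proteins were nearly empty. Of 16 genes of mitochondrial inner membrane organisation and 24 small subunits of the respiratory chain, 0 were in the table. Of 21 autophagy genes 1 was listed, WIPI1, which fell from 14.5 ± 1.30 to 7.38 ± 0.481 (SD, n = 4 each). Of 22 genes for secreted neuropeptides and growth factors 2 were listed, ADM2 and PTN, both with means under 1. Of 14 TRP channel genes 3 were listed, and the 1 tested, TRPA1, had 1.76 ± 0.566 and 0.88 ± 0.392, called in 8 of 17 fits. An unlisted gene did not pass the authors' thresholds or was not analysed here, so these counts say nothing of its level.

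The direction of the 4 changes held in every processing choice tried, while their size and order moved. Every extract value lay below every control value, so no choice except the scalings could have reversed a direction. Nothing is read from its holding in the others. The log2 change ranged from −2.36 to −1.59 for TMEM160, from −2.32 to −1.42 for C4orf48, from −2.10 to −1.48 for INAFM1 and from −1.64 to −1.04 for EVA1B. EVA1B was the smallest of the 4 in each. Without controls 3 and 5 together, the extremes of all 4 genes, the changes were −2.16, −1.88, −1.86 and −1.37 for TMEM160, C4orf48, INAFM1 and EVA1B.

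**Figure D5:**
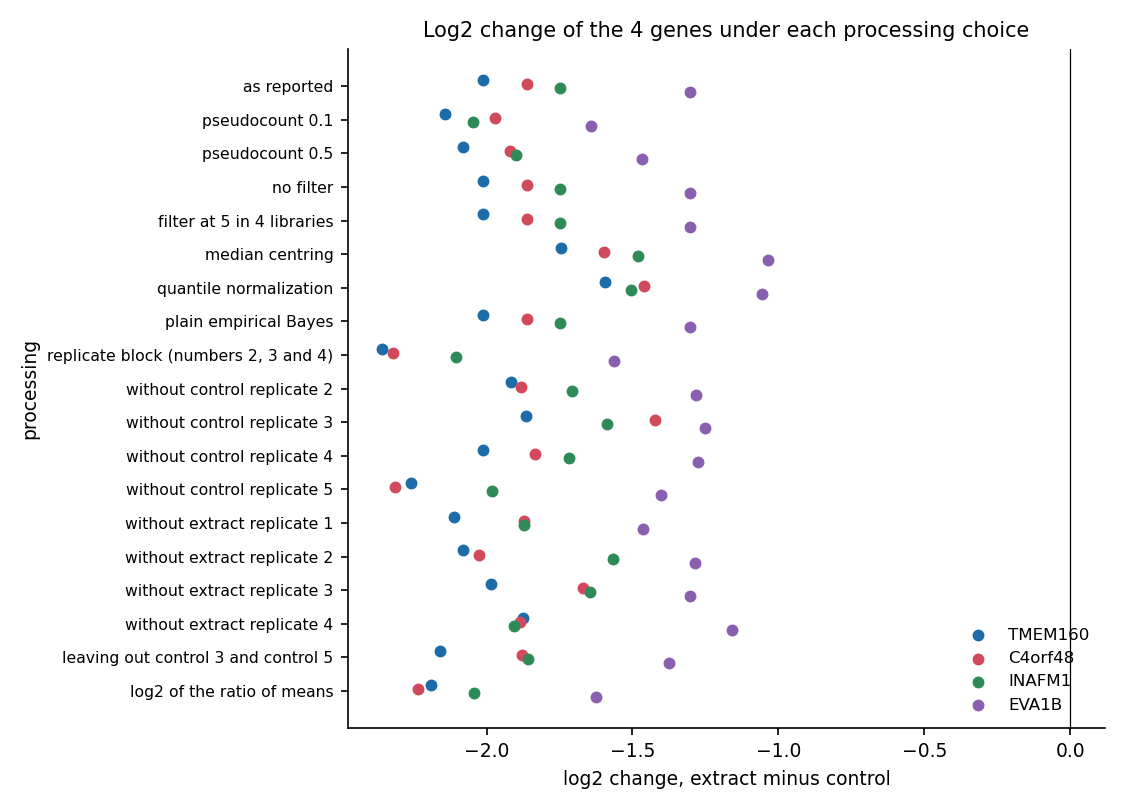
Log2 change, extract minus control (horizontal axis), of the 4 genes (colours) under each processing choice (vertical axis). All points lie left of 0, between −2.36 and −1.04, and C4orf48 moves most, from −1.42 without control 3 to −2.31 without control 5 and −2.32 with the replicate block.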

How the data were processed

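RNA sequencing values of 8 libraries (4 extract, 4 control) were taken from the authors' deposited table. HISAT2, StringTie and the build GRCh38 appear in the submitters' processing notes, with no version or role. The sources used here do not give the counting method or strand setting. The table gives 1 expression value per gene and library in a unit not stated, plus, by the authors, p-values (raw and adjusted) and the fold change as a ratio and as log2, deposited without the name of the tool. Values were not counts, so depth is unknown and no counting interval is given.

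Values were tested as log2(value + 1) with limma 3.58.1 in R 4.3.3 (empirical Bayes with trend and robust moderation) for the 750 of 1950 genes that reached 1 in 4 or more libraries. Adjusted p is Benjamini-Hochberg over these genes, called at 0.05. The fit was tested on simulated data with known changes. Genes were placed by GENCODE release 29, and protein lengths came from its coding sequences. Promoter windows came from RefSeq, matched for 4 of 4 genes, C4orf48 through its synonym.

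The 4 genes and the lists were chosen with earlier results of these data known. Named genes were the 4, their paralogs, partners and listed neighbours, the genes nearest in pattern, and up to 4 tested genes per list by size of change. HES4 and APOE, from the short and GC-rich genes, were named after their values were seen. Pseudocount, filter, scaling, moderation, replicate block and left-out libraries were varied; leaving out controls 3 and 5 together and the ratio of means were added after seeing the data. The result of 1 marker list is not reported here.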

Additional observations from a re-analysis of the deposited data

Results flagged for a closer look

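Of 92 groups of 4 libraries, for the 4 genes and the other genes named by rule, 4 had 1 library standing well apart, and about 4.6 (1 in 20) would by chance. None was in TMEM160, C4orf48, INAFM1 or EVA1B. UQCRFS1P1, the pseudogene nearest in pattern to TMEM160, was lowest in control 5 (5.48, others 15.23 to 15.79). BBC3, near INAFM1, was highest in control 3 (15.49, others 12.35 to 12.44). CD3D was highest in extract 2 (22.87, others 18.5 to 19.0), and TRPV1 was highest in control 2 (0.16, others 0.05 to 0.06).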

How the results depend on the processing

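Of 72 values of the log2 changes of TMEM160, C4orf48, INAFM1 and EVA1B under other choices, 70 moved by less than the spread between libraries, 2 moved by more and 0 changed sign. The 2 were EVA1B at a pseudocount of 0.1 (−1.64) and as log2 of the ratio of means (−1.63), against −1.30. Changing the filter or the moderation cannot move the change of a gene, so those values among the 70 were fixed. No choice except the scalings could have changed a sign, since the groups did not overlap. Leaving out 1 library at a time gave −2.26 to −1.87 for TMEM160, −2.31 to −1.42 for C4orf48, −1.98 to −1.57 for INAFM1 and −1.46 to −1.16 for EVA1B. The SD of log2 values among controls, with 1 control left out, lay between 0.22 and 0.64 for TMEM160, 0.22 and 0.61 for INAFM1 and 0.0486 and 0.243 for EVA1B, each lowest without control 5, and between 0.76 and 1.33 for C4orf48. The number of genes called was 253 (71 higher, 182 lower) with a filter at 5, where fewer genes were tested, and 314 were higher without a filter, against 621 (201 and 420). Genes called lower were 241 with median centring and 251 with quantile normalization; the group medians differed by −0.27 (log2), and both scalings rest on genes chosen as changed. The numbers 2, 3 and 4 are shared by both groups, and the sources used here do not say what they mark. Same-numbered libraries deviated together only weakly (r = 0.08, 0.08 and 0.15 over 750 genes). By these deviations controls 3 and 4 were most like the extract library of the same number, and control 2 was most like extract 1. Weak correlations do not exclude shared cultures, so whether the numbers pair the samples is not known. With the number as a replicate block, which drops extract 1 and control 5, the changes were −2.36, −2.32, −2.10 and −1.56, and 515 genes were called. The unknown unit and depth limit the precision of the low values, those of EVA1B and of INAFM1 in extract libraries most directly.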
